A study of Mus musculus with 2 samples.

Results

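Stem cell and Wnt target genes were followed in single cells sorted from mouse small intestinal organoids. The 10 genes were chosen by name: Lgr5, Ascl2, Olfm4, Slc12a2, Gkn3, Smoc2, Axin2, Rnf43, Sox9 and, described apart, Lef1. Of these, 9 are listed for both plates among 16943 nuclear genes, and Olfm4 is listed for the DMSO plate alone. Organoids were grown from jejunum and ileum and treated for 48 h with ISX-9, a small molecule, or with the solvent DMSO, and 1 plate of single cells was sorted from each. Cells of both plates carried the Ngn3-RFP reporter, given in the labels as the genotype Neurog3-RFP hom, and both were sorted for red fluorescence. The labels do not say how the reporter was built or how many cultures or animals stood behind a plate. Each treatment is therefore 1 library of 384 wells, and no comparison between the treatments has a replicate check or a test. Chromosomes in the files are 10 for Lgr5, 7 for Ascl2, 14 for Olfm4, 18 for Slc12a2, 6 for Gkn3, 17 for Smoc2, 11 for Axin2, Rnf43 and Sox9, and 3 for Lef1.

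In the intestinal crypt, Wnt ligands bind Frizzled and Lrp receptors, stop the breakdown of beta-catenin and let it act with TCF and LEF factors on target genes. The pathway keeps crypt base stem cells dividing, and its targets include brakes on the pathway itself. Neurog3 is the transcription factor of enteroendocrine progenitors, which arise from crypt cells and leave the cell cycle as they mature.

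Wells with at least 2000 nuclear reads and 500 genes were kept, 290 of 384 in the ISX-9 plate and 300 of 384 in the DMSO plate, with 11801859 and 14754827 nuclear reads and medians of 22509.5 and 26340 reads per well. Levels are CPM, reads summed over wells and scaled to a common total of nuclear reads, with exact Poisson 95% intervals, and shares of wells have exact Clopper-Pearson 95% intervals. The Poisson intervals and those of fold differences treat reads as independent, which amplified reads are not, so they are too narrow. The intervals of shares cover only the drawing of wells from 1 plate. Differences are log2 ratios of (CPM + 5), which understate differences of low genes, and a gene at a ratio of 1 or more in size is called 2-fold. Of the 7 epithelial markers, none was 2-fold apart, with summed levels of 2813 and 3223 CPM in the ISX-9 and DMSO plates. Of 8 markers of blood, vessel and connective tissue cells, 7 are listed, with sums of 54.1 and 17.6 CPM. Pecam1 made up 47.03 and 16.3 CPM of these, and Ptprc, Cd3e and Col3a1 were at or near 0.

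Levels of all 6 stem cell members were lower with ISX-9, and Ascl2, Gkn3 and Olfm4 stood furthest apart. Ascl2, a transcription factor of crypt base stem cells, stood at 51.3 CPM (47.3 to 55.6) in the ISX-9 plate and 154.9 CPM (148.6 to 161.3) in the DMSO plate, a log2 ratio of -1.50. Its reads came from 35 of the 290 wells with ISX-9 and 85 of the 300 with DMSO, 12.1% (8.55 to 16.4) and 28.3% (23.3 to 33.8), so the level and the share of wells differed in the same direction. Gkn3, a gastrokine that marks part of the crypt base, had 17 reads in 5 ISX-9 wells and 306 reads in 37 DMSO wells, or 1.44 and 20.7 CPM, a log2 ratio of -1.999. Olfm4, a secreted glycoprotein of crypt base cells, had no read in the ISX-9 plate, where the 95% interval reaches 0.313 CPM. It had 48 reads in 17 DMSO wells, or 3.25 CPM (2.40 to 4.31), which is 12.8-fold above an ISX-9 floor of 3 counts (0.254 CPM). Of all 9106 genes with a mean of 10 CPM or more, 1.19% were at least 2-fold lower and 4.51% at least 2-fold higher. Ascl2 and Gkn3 ranked 49 and 28 from the lowest ratio.

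Slc12a2, the sodium, potassium and chloride cotransporter of crypt cells, stood at 531 CPM (518 to 545) in the ISX-9 plate and 939 CPM (923 to 954) in the DMSO plate, with reads in 121 and 182 wells and a log2 ratio of -0.82. Lgr5, the R-spondin receptor that defines crypt base stem cells, stood at 145.3 CPM (138.5 to 152.4) and 207.7 CPM (200.4 to 215.1), with a log2 ratio of -0.50. Its reads came from 103 ISX-9 wells and 118 DMSO wells, 35.5% (30.01 to 41.3) and 39.3% (33.8 to 45.1), and these intervals overlap. Smoc2, a secreted calcium-binding protein of the stem cell signature, stood at 112.4 and 137.1 CPM, with reads in 100 ISX-9 and 135 DMSO wells. Among wells with a read, single-well levels spread widely: Lgr5 ran from 8.43 CPM over a median of 154.1 to 1625 CPM in ISX-9 wells, and from 7.93 CPM over 222.9 to 1916 CPM in DMSO wells. The median well of either plate had no read of Lgr5. Slc12a2 passed 1000 CPM in 30 ISX-9 wells and 62 DMSO wells, and its highest wells stood at 3406 and 5655 CPM. The read wells of Ascl2 had medians of 117.7 and 216.5 CPM and their highest values were 702.4 and 1363 CPM, so Ascl2 was lower in the wells that held it as well as read in fewer of them.

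Axin2 and Rnf43, both brakes on Wnt signalling, were slightly higher with ISX-9, but with scaling by ERCC spike-in reads their log2 ratios were -0.03 and 0.00416, so no difference is read from them. Axin2, a scaffold of the complex that degrades beta-catenin and a standard readout of Wnt signalling, stood at 149.8 CPM (142.9 to 157.0) in the ISX-9 plate and 128.2 CPM (122.4 to 134.1) in the DMSO plate, with reads in 127 wells of each. Rnf43, a ubiquitin ligase that removes Frizzled from the cell surface, stood at 42.03 and 35.1 CPM, with reads in 89 and 95 wells. Its locus overlaps that of another gene, Supt4a, which had 207 and 248 reads, and the counting rule for such reads was not given in the sources used here. Sox9, a transcription factor of crypt progenitors and Paneth cells, stood at 870.3 and 1007 CPM, with reads in 243 and 271 wells. Of the 8 members other than Lef1 at a mean of 10 CPM or more, 6 had a negative and 2 a positive ratio, with a median of -0.39, beside a median of 0.15 and 32.6% negative ratios over all 9106 genes.

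**Figure D1:**
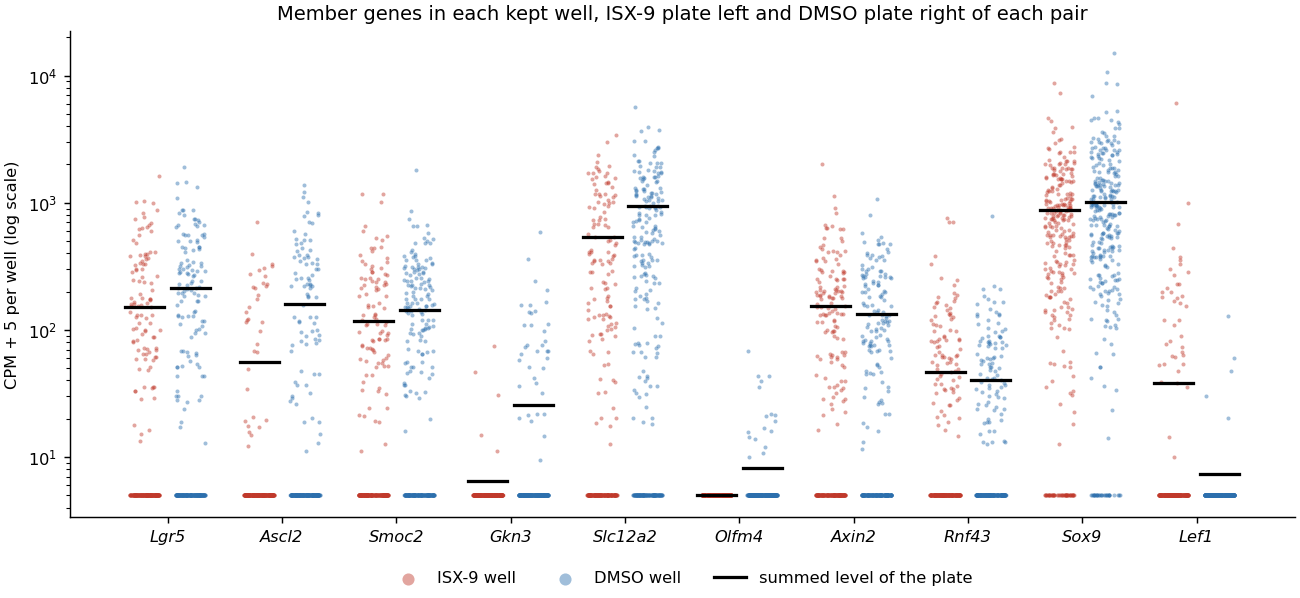
Each point is the level of 1 member gene in 1 kept well, as CPM + 5 on a log scale, with the 290 ISX-9 wells left and the 300 DMSO wells right of each pair; black bars are levels summed over the plate. Ascl2 and Gkn3 had reads in 35 and 5 ISX-9 wells, against 85 and 37 DMSO wells, while Lef1 had reads in 41 ISX-9 wells and 5 DMSO wells.

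The plates also held different mixtures of cells. Neurog3 stood at 2990 CPM in the ISX-9 plate and 678.6 CPM in the DMSO plate, and wells with 1000 CPM or more are called Neurog3-high. These were 105 wells in the ISX-9 plate (36.2%, 30.7 to 42.03) and 47 wells in the DMSO plate (15.7%, 11.7 to 20.3). The 6 Paneth cell markers summed to 2691 and 11682 CPM, with 5 of 5 at 10 CPM or more at least 2-fold lower, beside 1.19% of all genes. The 8 goblet cell markers summed to 4098 and 9811 CPM, with 6 of 8 at least 2-fold lower. Their part in the plate differences of the members was not tested. Wells below the limits for Neurog3, Tph1, Muc2 and Lyz1 were also taken alone (109 ISX-9 and 130 DMSO wells, called remaining wells). They were not alike between the plates, with Muc2 at 161.7 and 325.0 CPM and Lyz1 at 148.8 and 430.6 CPM in remaining ISX-9 and DMSO wells. In these, Lgr5 stood at 206.5 and 203.5 CPM, Slc12a2 at 870.6 and 953.4 CPM, Smoc2 at 157.1 and 136.9 CPM, and Sox9 at 954.5 and 929.0 CPM in ISX-9 and DMSO wells. Ascl2 stood at 71.8 and 182.1 CPM and Gkn3 at 2.89 and 24.8 CPM, log2 ratios of -1.28 and -1.92. Ascl2 and Gkn3 were thus more than 2-fold lower in the remaining ISX-9 wells, while Lgr5, Slc12a2 and Sox9 differed there by log2 ratios of 0.02, -0.13 and 0.04. The feedback gene Axin2 stood at 180.9 and 137.1 CPM in remaining wells and Rnf43 at 62.5 and 36.8 CPM, log2 ratios of 0.39 and 0.69. Rnf43 was read in 50.5% of these ISX-9 wells and 34.6% of these DMSO wells, and in 33.2% and 20.1% at 10000 reads per well. Olfm4 had no read in the remaining ISX-9 wells and 21 reads in 6 of the remaining DMSO wells.

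Within the ISX-9 plate, every member with a mean of 10 CPM or more was lower in the 105 Neurog3-high wells than in the other 185 wells, 7 of 7 with a median log2 ratio of -0.54, beside -0.02 for all genes. Lgr5 and Axin2 did not keep that direction with wells thinned to 2000 reads, at 0.09 and 0.17. Slc12a2 stood at 212.3 CPM (197.7 to 227.7) in Neurog3-high wells and 677.1 CPM (659.3 to 695.2) in the other wells, with reads in 27.6% (19.3 to 37.2) and 49.7% (42.3 to 57.2) of wells. Rnf43 stood at 17.02 and 53.5 CPM, with reads in 13.3% and 40.5% of wells. These 2 members were at least 2-fold lower, at log2 ratios of -1.65 and -1.41, and 6.2% of the 9255 genes at 10 CPM or more in that comparison were as well, with 5.31% at least 2-fold higher. Smoc2 (70.2 and 131.7 CPM), Lgr5 (109.7 and 161.6 CPM) and Ascl2 (41.6 and 55.8 CPM) had log2 ratios of -0.86, -0.54 and -0.38. Axin2 stood at 132.1 and 157.9 CPM and Sox9 at 787.1 and 908.3 CPM, log2 ratios of -0.25 and -0.21, the smallest of the 7. Axin2 and Sox9 were read in more of the Neurog3-high wells, 47.6% against 41.6% and 87.6% against 81.6%, which goes against their levels. At 10000 reads per well these shares were 45.6% against 41.6% for Axin2 and 84.04% against 83.9% for Sox9, and no order is read from them. With wells divided by any Neurog3 read against none, where the 79 wells with no read had a median of 11841 reads, Slc12a2 had a ratio of 0.0668, Lgr5 one of 0.59 and Axin2 one of 1.01.

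In the DMSO plate the 47 Neurog3-high wells gave another picture. Of 8 members at 10 CPM or more, 7 had a positive ratio against the other 253 wells and 1, Ascl2, a negative one, with a median of 0.21 beside 0.13 for all 8751 genes. None was 2-fold apart, where 3.95% of those genes were at least 2-fold lower and 6.48% at least 2-fold higher. Lgr5 stood at 272.6 CPM in Neurog3-high wells and 197.0 CPM in the other wells, but its reads came from 12 of 47 wells (25.5%) and 106 of 253 wells (41.9%), in the opposite direction. Slc12a2 stood at 1047 and 920.7 CPM and was read in 40.4% and 64.4% of wells. Much of these levels came from 1 well. It had 334516 reads, 16.1% of those in the Neurog3-high wells, and its Neurog3 level of 1109 CPM was just over the limit. It held 39.4% of the Lgr5 reads, 42.4% of the Slc12a2 reads and 50.7% of the Rnf43 reads of the 47 wells. Without it, Lgr5 stood at 196.7 CPM in Neurog3-high wells against 197.0 CPM, Slc12a2 at 718.1 against 920.7 CPM and Rnf43 at 21.2 against 34.96 CPM, and 4 members were lower and 4 higher, with a median of 0.02. In the ISX-9 plate, leaving out the Neurog3-high well with the most reads (234722) made the ratios of the 7 members more negative, with Ascl2 at -1.12 and Rnf43 at -1.80.

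**Figure D2:**
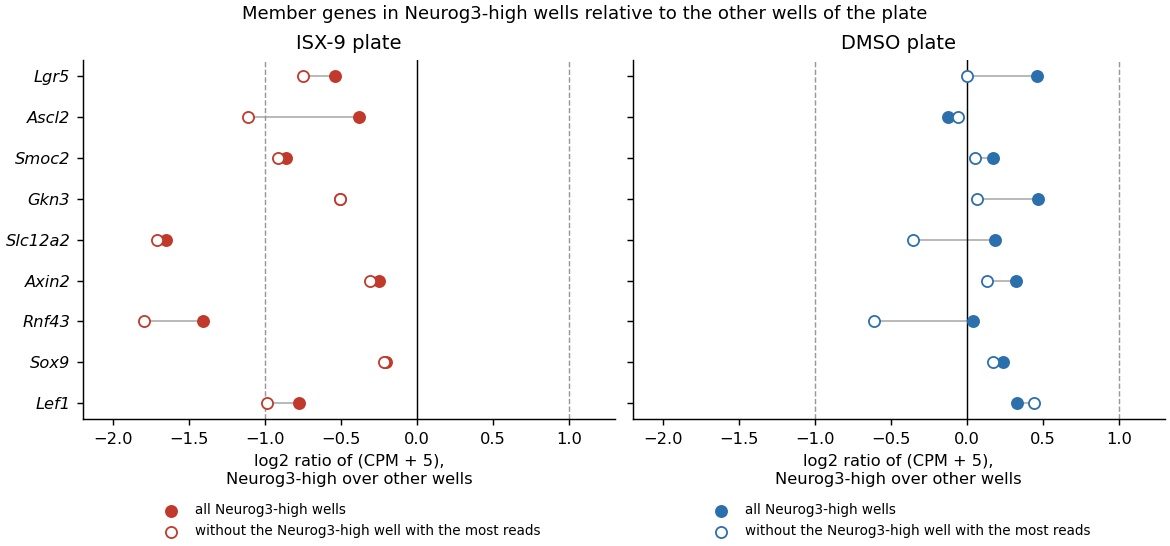
Log2 ratios of (CPM + 5), Neurog3-high wells over the other wells of the same plate, for the ISX-9 plate (left) and the DMSO plate (right); filled points use all Neurog3-high wells and open points leave out the one with the most reads, and dashed lines mark 2-fold. The ISX-9 points lie below 0 in both settings, while in the DMSO plate Slc12a2 moved to -0.36 and Rnf43 to -0.61 without that well.

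The limit of 1000 CPM divides a continuous range, and 16 ISX-9 and 8 DMSO wells lay within 1.5-fold of it. Wells were therefore also divided into ranges of Neurog3, chosen after the values were seen. In the 39 ISX-9 and 11 DMSO wells with Neurog3 at 10000 CPM or more, Slc12a2 stood at 18.2 CPM (24 reads) and 48.0 CPM (11 reads), against 817.5 and 942.9 CPM in the 77 ISX-9 and 84 DMSO wells with Neurog3 above 0 and under 300 CPM. Ascl2 stood at 2.28 and 21.8 CPM there, against 63.7 and 162.8 CPM, and Rnf43 at 2.28 and 4.36 CPM, against 56.9 and 39.2 CPM. Gkn3 had no read in the wells of that highest range in either plate. The receptor Lgr5 stood at 67.6 and 96.01 CPM, against 198.2 and 217.4 CPM, Axin2 at 88.1 and 148.4 CPM, against 199.7 and 106.7 CPM, and Sox9 at 482.9 and 785.5 CPM, against 872.8 and 949.5 CPM. Slc12a2, Lgr5 and Sox9 were thus at their lowest in the highest range of both plates. Axin2 was not: the 79 ISX-9 wells with no Neurog3 read had 80.1 CPM of it. Ascl2 and Rnf43 rest there on 3 ISX-9 reads each and on 5 and 1 DMSO reads. In the DMSO plate Slc12a2 stood at 1235 CPM in the 17 wells with 1000 to 3000 CPM of Neurog3 and 1090 CPM in the 19 wells with 3000 to 10000 CPM. The well of 334516 reads lay in the range of 1000 to 3000 CPM, and without it Slc12a2 stood at 497.9 CPM and Lgr5 at 189.97 CPM, against 345.8 CPM of Lgr5 with it, so the order of these ranges rests on that well. Slc12a2 was read in 47.1% and 42.1% of the wells of these ranges, against 75% of the wells under 300 CPM. The 11 DMSO wells had a median of 10725 reads, 1 of them held 81.8% of their Slc12a2 reads, and their Lyz1 level was 6114 CPM.

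**Figure D3:**
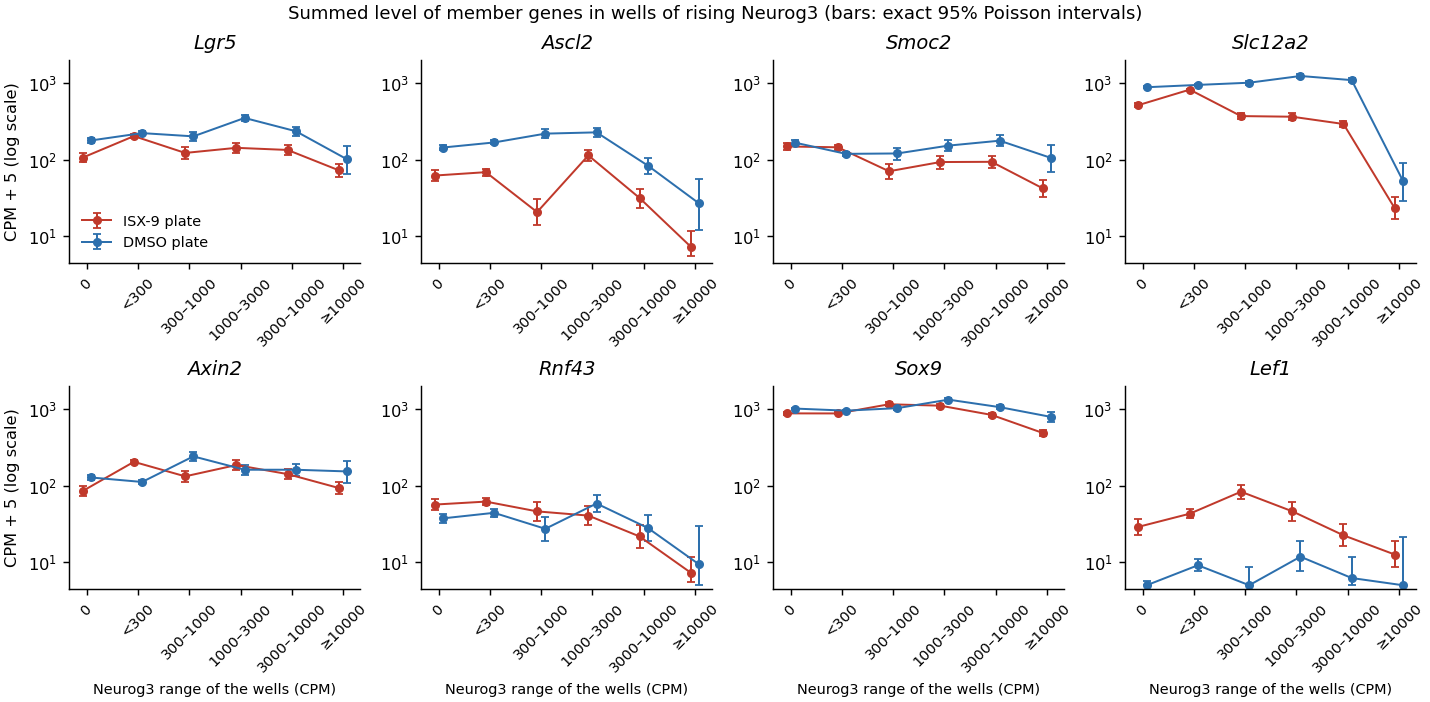
Summed levels of 8 members as CPM + 5 on a log scale, in wells grouped by their Neurog3 level from no read to 10000 CPM or more, for the ISX-9 plate and the DMSO plate; bars are exact 95% Poisson intervals. Slc12a2, Ascl2 and Rnf43 reach their lowest levels at the right of each panel (18.2, 2.28 and 2.28 CPM in ISX-9 wells), and Sox9 does too, at 482.9 CPM, while Axin2 is at 88.1 CPM there and 80.1 CPM at the left.

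Counted per well, Neurog3-high wells held fewer of the 9 members other than Lef1. With each well of at least 10000 reads thinned to 10000, a Neurog3-high well had reads of 2.10 members on average and an other well 2.95 in the ISX-9 plate (79 and 117 wells), and 2.88 and 3.37 in the DMSO plate (32 and 183 wells). Wells with 4 or more members made up 12.7% (6.24 to 22.05) of Neurog3-high wells and 38.5% (29.6 to 47.9) of other wells in the ISX-9 plate. In the DMSO plate they made up 25% (11.5 to 43.4) and 44.8% (37.5 to 52.3), and these intervals overlap. Neurog3-high wells were also less often cycling, with 5 of 105 against 31 of 185 ISX-9 wells and 2 of 47 against 33 of 253 DMSO wells at 1000 CPM or more summed over 8 cell cycle genes. The part of cycling in the lower member count was not tested. By well group, the mean was 3.53 and 3.65 members in remaining ISX-9 and DMSO wells, 4.62 and 4.38 in cycling wells, and 1.59 and 1.90 in wells high in Tph1, so cycling wells held the most members in both plates.

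Wells marked by a gene of mature cells held member reads as well. In wells with Tph1, the enzyme of serotonin synthesis in enterochromaffin cells, at 1000 CPM or more and Neurog3 below the limit (44 ISX-9 and 47 DMSO wells, medians of 16483.5 and 15730 reads), Lgr5 was read in 7 and 8 wells, 15.9% and 17.02%. Neurog3-high wells had Lgr5 reads in 32.4% and 25.5%, at medians of 28136 and 24056 reads. With 10000 reads per well the expected shares were 16.3% in the Tph1-high wells of either plate, and 27.6% and 30.8% in ISX-9 and DMSO Neurog3-high wells. The intervals of the unthinned shares overlap in both plates, at 23.6% to 42.2% and 6.64% to 30.07% in ISX-9 Neurog3-high and Tph1-high wells and at 13.9% to 40.3% and 7.65% to 30.8% in DMSO wells. Ascl2 was read in 6.67% (2.72 to 13.3) of the ISX-9 Neurog3-high wells and 11.4% (3.79 to 24.6) of the Tph1-high wells. In the DMSO plate these shares were 36.2% (22.7 to 51.5) and 14.9% (6.20 to 28.3). The intervals overlap in both plates, and no order is read from them. In Tph1-high wells, Slc12a2 stood at 113.3 and 803.4 CPM and Ascl2 at 21.3 and 128.7 CPM, while Sox9 stood at 913.5 and 841.5 CPM and Axin2 at 110.3 and 110.4 CPM in the ISX-9 and DMSO plates. A single well held 40.9% of the Slc12a2 reads of the DMSO Tph1-high wells, and 599.0 CPM were left without it. Neurog3-high wells that also had Tph1 at 1000 CPM or more (15 ISX-9 and 13 DMSO wells) had Lgr5 at 43.02 and 407.5 CPM and Slc12a2 at 83.8 and 1701 CPM, against 118.7 and 220.7 CPM of Lgr5 and 229.7 and 795 CPM of Slc12a2 in the 90 ISX-9 and 34 DMSO Neurog3-high wells with less Tph1. These DMSO levels with more Tph1 rest on the well of 334516 reads. Without it Lgr5 stood at 49.1 CPM (12 reads in 1 well) and Slc12a2 at 245.3 CPM (60 reads in 4 wells) in the other 12 wells. Both were then below the wells with less Tph1, as in the ISX-9 plate. In those 12 DMSO wells Ascl2 (179.9 against 145.6 CPM), Sox9 (1488 against 1045 CPM) and Gkn3 (24.5 against 19.9 CPM) were higher than with less Tph1, and the other members lower. Ascl2 rests there on 44 reads in 4 wells and Gkn3 on 6 reads in 1 well.

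Goblet-marked wells (Muc2 at 2000 CPM or more, 30 ISX-9 and 55 DMSO wells) had 1 Ascl2 read in ISX-9 wells and 144 in DMSO wells, or 1.18 and 58.02 CPM. Their Lgr5 level was 49.6 and 209.1 CPM, and their Axin2 level 78.01 and 80.2 CPM. Wells with Lyz1, a Paneth cell lysozyme, at 5000 CPM or more numbered 2 in the ISX-9 plate and 21 in the DMSO plate, where Lgr5 stood at 275.6 CPM and Ascl2 at 270.0 CPM. Cycling wells (36 ISX-9 and 35 DMSO wells) had nearly the same Lgr5 level, 281.5 and 281.3 CPM, and Slc12a2 at 993.4 and 1153 CPM, while Ascl2 stood at 102.4 and 275.0 CPM and Gkn3 at 1.49 and 29.5 CPM. Axin2 stood at 277.0 and 184.2 CPM in these cycling wells and at 112.3 and 114.8 CPM in wells that were not cycling. In wells that were not cycling, Lgr5 stood at 105.2 and 190.1 CPM and Slc12a2 at 395.1 and 887.3 CPM. The plates thus differed in Ascl2 in each of these well groups that held more than 2 wells, and in Lgr5 and Slc12a2 by less in cycling and remaining wells than in the others.

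Wells with an Lgr5 read more often held reads of other stem cell members than wells without one. With each well thinned to 10000 reads, Slc12a2 was read in 61.8% of the 68 ISX-9 wells with an Lgr5 read and 30.5% of the 128 without one, and in 83.5% of 85 and 49.2% of 130 DMSO wells. Smoc2 was read in 50% and 21.1% of these ISX-9 wells and in 62.4% and 30.8% of these DMSO wells. Ascl2 was read in 17.6% (9.47 to 28.8) and 8.59% (4.37 to 14.9) of them in the ISX-9 plate, where the intervals overlap, and in 47.1% (36.1 to 58.2) and 17.7% (11.6 to 25.4) in the DMSO plate. Axin2 was read in 63.2% and 27.3% of ISX-9 wells and 51.8% and 29.2% of DMSO wells with and without Lgr5. Mki67, a marker of cycling cells, was read in 27.9% and 8.59% of ISX-9 wells and in 37.6% and 11.5% of DMSO wells. Neurog3 itself was read in 57.4% and 60.9% of ISX-9 wells and in 31.8% and 40% of DMSO wells, with overlapping intervals. Of the 21 pairs of 7 members, 20 in the ISX-9 plate and 21 in the DMSO plate had the one gene in a higher share of wells with the other than of wells without it. The share of such pairs among all genes was not computed, so the count is not read as particular to the members. Wells with all of Lgr5, Ascl2 and Slc12a2 made up 10 of 196 (5.10%, 2.47 to 9.18) in the ISX-9 plate and 40 of 215 (18.6%, 13.6 to 24.5) in the DMSO plate, and 3 and 6 of them were Neurog3-high, while 6 and 10 were cycling. Of all 196 ISX-9 and 215 DMSO wells, 79 and 32 were Neurog3-high and 26 and 32 were cycling. Gkn3 was too rare in ISX-9 wells to compare, and in DMSO wells it was read in 15.3% of wells with Lgr5 and 3.08% without. Doublets were not called, and the wells of a plate share 1 library.

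**Figure D4:**
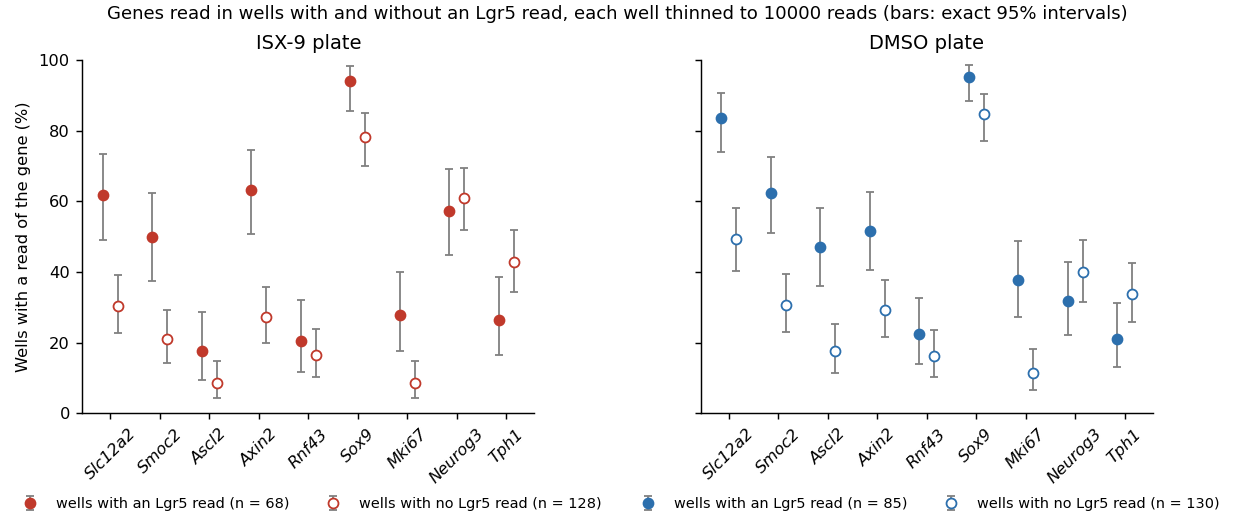
Share of wells with a read of each gene among wells with an Lgr5 read (filled points) and with no Lgr5 read (open points), each well thinned to 10000 reads, in the ISX-9 plate (left) and the DMSO plate (right); bars are exact 95% Clopper-Pearson intervals. Slc12a2, Smoc2, Axin2 and Mki67 were read more often beside Lgr5 in both plates, and Neurog3 was not.

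Among 6509 genes read in at least 10% of these wells, the 5 whose levels followed Lgr5 most closely from well to well were Slc12a2, Cps1, Rpl3, Cdca7 and Tspan8, with mean Spearman correlations over the 2 plates of 0.46, 0.40, 0.38, 0.36 and 0.35. Cps1 is an enzyme of the urea cycle, Rpl3 a ribosomal protein, Cdca7 a cell division gene and Tspan8 a tetraspanin. The other members had 0.34 (Smoc2), 0.29 (Axin2), 0.25 (Ascl2), 0.17 (Sox9) and 0.11 (Rnf43). Their ranks among the 6509 genes were 9, 47, 130, 575 and 1528, so many other genes followed Lgr5 more closely than Ascl2, Sox9 and Rnf43 did. These are descriptions over 196 ISX-9 and 215 DMSO wells that share a library, a depth and their zeros.

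Lef1, a nuclear partner of beta-catenin that is itself a Wnt target, went the other way. It stood at 33.5 CPM (30.2 to 36.9) in the ISX-9 plate and 2.30 CPM (1.60 to 3.22) in the DMSO plate, a 14.5-fold difference (10.2 to 21.3) and a log2 ratio of 2.40. It ranked 42 from the highest of the 9106 genes. Its 395 ISX-9 reads came from 41 wells, and its 34 DMSO reads from 5 wells with 24, 7, 1, 1 and 1 reads. In ISX-9 wells with a read its level ran from 4.99 CPM over a median of 147.8 to 6082 CPM, and the well with the most reads held 17.2% of them. Of 3537 genes with a mean of 10 to 30 CPM, the range that holds Lef1, 6.47% were at least 2-fold higher in the ISX-9 plate.

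Lef1 reads were spread over several kinds of wells. They were found in 12 of 105 Neurog3-high, 5 of 44 Tph1-high, 2 of 30 Muc2-high and 22 of 109 remaining ISX-9 wells, and in 2 of 47 Neurog3-high and 3 of 130 remaining DMSO wells. In the ISX-9 plate its level was 20.8 CPM (16.4 to 25.996) in Neurog3-high wells and 39.3 CPM (35.1 to 43.8) in the other wells, and within the remaining wells it was 44.1 CPM, against 3.66 CPM in the DMSO plate. In cycling wells it was 66.3 CPM in the ISX-9 plate, with reads in 12 of 36 wells, and no read was found in the 35 DMSO cycling wells. At 10000 reads per well, Lgr5 was read in 57.7% (36.9 to 76.6) of the 26 ISX-9 wells with a Lef1 read. In the 170 wells without one the share was 31.2% (24.3 to 38.7), and these intervals overlap. Ascl2 was read in 11.5% and 11.8% of wells with and without a Lef1 read. Summed over wells with and without a Lef1 read, Lgr5 stood at 248.4 and 107.9 CPM, Slc12a2 at 864.7 and 410.4 CPM, Axin2 at 244.3 and 115.6 CPM and Mki67 at 140.1 and 68.2 CPM, while Neurog3 stood at 1538 and 3516 CPM. A single ISX-9 well of 183769 reads held the most reads of both Lef1 and Lgr5, 17.2% and 10.8% of those in the plate. The levels without it were not computed. Wells with a Lef1 read were deeper, with medians of 63185 and 18805 reads in ISX-9 wells with and without one. No gene followed Lef1 closely: the 5 nearest of 7633 in the ISX-9 plate (Nadkd1, Ugt2b35, Gtf2ird1, Cars and Plekhm2) had Spearman correlations of 0.29, 0.28, 0.27, 0.27 and 0.26.

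Promoter sequence is shown for Lef1 because it was the member with the highest ratio and factors of its own family act on Wnt targets. RefSeq windows of 300 bases (250 before to 50 after a start, build GRCm38.p6) matched 6 members by symbol, with 10 windows in all. They were searched on both strands for the TCF and LEF motif in 4 forms: CTTTGAA or else CTTTGAT, and also CTTTGTA or else CTTTGTT. A match was found in 1 of the 10 windows, beside 16.9% of 32851 windows of all genes. It lay in Lef1, 147 bases before an internal start, at chr3:131156117-131156183 on the plus strand, with the match, which reads CTTTGTA on the other strand, in capitals:
Lef1: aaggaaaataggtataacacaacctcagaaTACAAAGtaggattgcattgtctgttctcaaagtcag
The 3 Lef1 windows at its upstream starts, and the windows of Axin2, Ascl2, Rnf43, Gkn3 and Olfm4, did not hold these letters. The motif is a description of the windows, and nothing in the files measures binding.

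Other genes of the Wnt pathway were read from 5 lists of ligands, receptors, transducers, antagonists and targets, with 62 genes, 57 of them listed and 38 with a mean of 10 CPM or more. Of the 38, 3 were at least 2-fold higher in the ISX-9 plate and 0 at least 2-fold lower, beside 4.51% and 1.19% of all genes, with a median log2 ratio of 0.15, equal to that of all genes. The receptor Fzd3 stood at 21.2 and 1.83 CPM, with reads in 35 ISX-9 and 7 DMSO wells. Tcf7l1, a TCF factor that mostly represses, stood at 53.5 and 11.05 CPM, with reads in 32 and 6 wells. Notum, a secreted enzyme that inactivates Wnt ligands, stood at 22.4 and 1.63 CPM, with reads in 33 and 6 wells. Among the receptors Fzd2 (47.3 and 21.8 CPM) and Fzd1 (14.3 and 5.96 CPM), and among the targets Myc (218.0 and 119.6 CPM), came closest to 2-fold in the same direction. The epithelial ligand Wnt3 stood at 66.9 and 69.4 CPM, and its carrier Wls at 37.8 and 42.2 CPM. The antagonist Znrf3, a close relative of Rnf43, stood at 47.9 and 40.7 CPM, a log2 ratio of 0.21 beside 0.22 for Axin2 and 0.23 for Rnf43.

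Further named values were Nkd1 at 49.7 and 28.6 CPM, Axin1 at 34.7 and 22.8 CPM, Tle4 at 22.3 and 13.96 CPM, Tiam1 at 20.2 and 13.6 CPM and Ephb3 at 131.2 and 166.4 CPM. In ISX-9 wells, Tcf7l1 was read in 9 of 41 wells with and 23 of 249 wells without a Lef1 read, at 43.6 and 57.03 CPM, and Notum in 5 and 28 wells, at 6.37 and 28.2 CPM. These genes were higher in the ISX-9 plate, as Lef1 was, but their summed levels were not higher in the wells with Lef1. Of 12 other stem cell genes, 9 had 10 CPM or more, with a median of -0.29. The cell cycle kinase gene Cdk6 was the 1 of them at least 2-fold lower, at 8.90 and 26.2 CPM, with reads in 15 ISX-9 and 34 DMSO wells. The Bmp co-receptor Rgmb stood at 19.4 and 32.3 CPM, and the Polycomb gene Bmi1 at 56.6 and 34.5 CPM. The secreted Wnt antagonist Sfrp1 and Fstl1 were under the filter of 10 CPM and were named after their values were seen. Sfrp1 had 147 reads in 23 ISX-9 wells and none in the DMSO plate, 61.3-fold above a DMSO floor of 3 counts. Fstl1 had 101 reads in 22 ISX-9 wells and 3 reads in 2 DMSO wells.

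**Figure D5:**
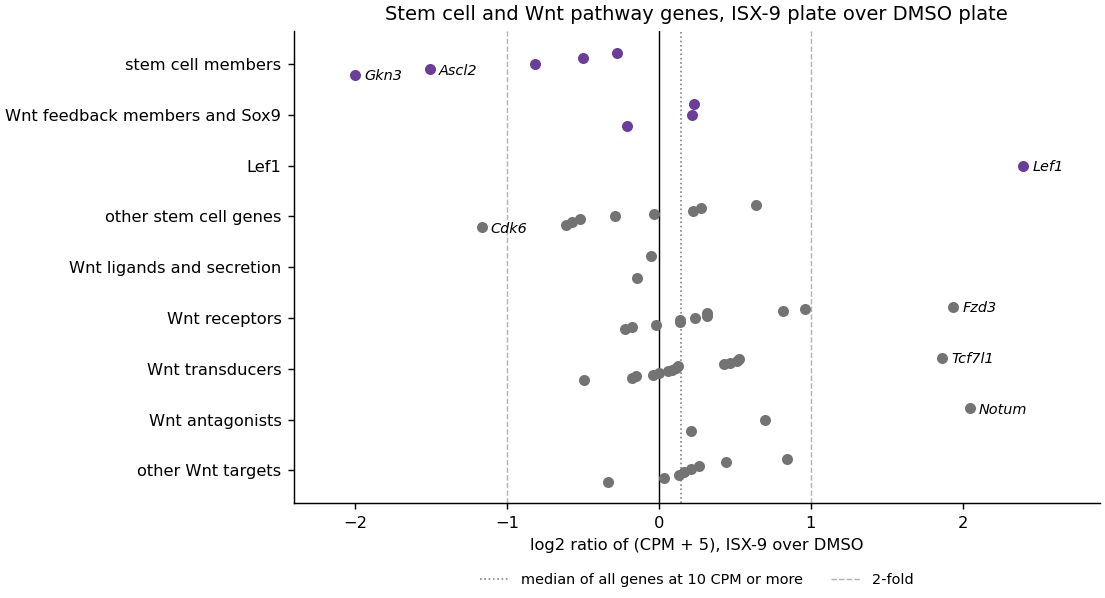
Points are single genes with a mean of 10 CPM or more, by list, with the members in purple; the axis is log2 of (CPM + 5) in the ISX-9 plate over that in the DMSO plate, dashed lines mark 2-fold and the dotted line is the median of all genes. The stem cell members lie between -1.999 and -0.28, Lef1 at 2.40, and of the other Wnt pathway genes Fzd3, Tcf7l1 and Notum lie beyond 2-fold.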

How the data were processed

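The authors deposited raw counts of reads per gene and well, 1 table per plate, made by SORT-seq with CEL-Seq2 chemistry per the labels' protocols. The deposited counts are reads and not molecules, and the molecular barcode has 4 bases (256 combinations). The submitters' processing notes name BWA, with no version, and a human genome build, while the gene rows carry mouse symbols; the aligner's settings and the counting rule are not given in the sources used here. No other column of per-sample values was left unused (0).

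ERCC and mitochondrial rows were taken out, wells with at least 2000 nuclear reads and 500 genes were kept, and CPM, thinned shares, log2 ratios of (CPM + 5) and exact intervals were computed from the deposited counts in Python 3.11.15 with numpy 2.4.6, pandas 2.3.3, scipy 1.17.1 and matplotlib 3.10.9, after checks on simulated data. A gene not listed for a plate was set to 0. All 384 well names are shared by the plates, as plate positions. Thinning used 10000 or 2000 reads.

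The members, lists, well limits and tests were chosen with earlier results of these data known. Named genes are the members, Neurog3, of each Wnt and stem cell list the 3 with the largest ratio in size among genes at 10 CPM or more, and the 5 most like Lgr5 and Lef1; others named are markers or were chosen after their values were seen (Wnt pathway genes Tcf7l1 and Notum in Lef1 wells, and the neighbour Supt4a). The well limits were Neurog3 and Tph1 at 1000 CPM, Muc2 at 2000 CPM and Lyz1 at 5000 CPM, applied in that order. Alternatives changed the pseudocount, filters, scaling, Neurog3 limit, thinning and single wells.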

Additional observations from a re-analysis of the deposited data

Results flagged for a closer look

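For 4 members flagged here the ratio of Neurog3-high to other wells had opposite signs in the 2 plates. Smoc2 (-0.86 and 0.17 in ISX-9 and DMSO), Rnf43 (-1.41 and 0.04), Gkn3 (-0.51 and 0.47) and Lef1 (-0.78 and 0.33) did as well. Ascl2 was negative in both plates. The difference between plates was not tested, because each treatment is 1 plate. Lgr5 had a log2 ratio of -0.54 in the ISX-9 plate and 0.46 in the DMSO plate. Slc12a2 had -1.65 and 0.18, Axin2 -0.25 and 0.32, and Sox9 -0.21 and 0.24. Without the Neurog3-high well with the most reads in each plate, the ratios were -0.75 and -0.00 for Lgr5, -1.71 and -0.36 for Slc12a2, -0.31 and 0.13 for Axin2, and -0.22 and 0.17 for Sox9. Rnf43 had -1.80 and -0.61 without these wells. The opposite signs of Slc12a2, Lgr5 and Rnf43 thus rest on that DMSO well. With 1 sample in a group, no sample could be compared with others of its group.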

How the results depend on the processing

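No paired analysis was possible because each treatment has 1 plate. Between the plates, Ascl2, Gkn3, Olfm4, Slc12a2, Rnf43 (as low as 0.00416 with ERCC scaling) and Lef1 kept their direction under 10 of 10 alternatives (Lef1 between 1.26 and 3.38, Ascl2 between -2.14 and -1.28, Gkn3 between -3.16 and -0.93); Lgr5, Smoc2 and Sox9 turned positive in remaining wells alone (0.02, 0.19 and 0.04), and Axin2 turned to -0.03 with ERCC scaling. Lef1 was 3.38 with a pseudocount of 1, 1.26 with 20 and 3.11 as a mean over wells. That mean was 45.8 CPM over 290 ISX-9 wells and leans on 1 well at 6082 CPM. Members other than Lef1 at least 2-fold lower numbered 2, and 1 with a pseudocount of 20. Under some other alternatives the count rose, with Slc12a2 as low as -1.07 and Olfm4 as low as -2.09. Scaling by medians of ratios or by ERCC moved ratios by -0.17 and -0.25. In the Neurog3 comparison of the ISX-9 plate, 2 members were at least 2-fold lower. That was 1 with a pseudocount of 20, 4 without the top 5% of wells, 5 with a limit of 10000 CPM, and 0 (with 1 at least 2-fold higher, Axin2) for any Neurog3 read against none, where Slc12a2 turned to 0.0668. In the DMSO plate the count was 0, and 1 with a limit of 3000 CPM, 5 with 10000 CPM, and 1 at least 2-fold higher with wells thinned to 2000 reads. Ratios there were small and most changed sign under at least 1 alternative. At the limit of 1000 CPM, 6.2% of all genes were at least 2-fold lower in the ISX-9 plate and 3.95% in the DMSO plate. That share was not computed under the Neurog3 alternatives, so no result about the members is read from those counts. The limit of 10000 CPM, the remaining wells and the deepest wells left out were chosen after seeing the data. Members per well kept the same order with 2000 reads (1.05 and 1.35 in ISX-9, 1.55 and 1.67 in DMSO Neurog3-high and other wells). Without the filter on low levels, 0.744% of genes were at least 2-fold lower and 3.88% higher between the plates. A level under 0.254 CPM (ISX-9) or 0.203 CPM (DMSO) could not be seen at this depth, and most members had no read in most wells.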
